A study of Mus musculus with 7 samples.

Results

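The genes of the semaphorin system were examined in mouse skin papillomas: 20 semaphorins (*Sema3* to *Sema7*), 9 plexins, the neuropilins *Nrp1* and *Nrp2*, and *Plxdc1* and *Plxdc2*. These 33 genes of 23284 symbols were chosen by gene symbol, every symbol of the family was taken whatever its level, and all 33 were listed in every papilloma. The family itself was selected on a view of FPKM in TG against CTR papillomas, so those differences are given as a description, beside what a fit over all genes called. Papillomas came from C57BL/6 mice treated once with the carcinogen DMBA and then repeatedly with the tumor promoter TPA. The 4 CTR mice carried the *tetO-Nanog* transgene (a *Nanog* cDNA inserted downstream of *Col1a1*) and lacked the transactivator. The 3 TG mice also carried *K5-rtTA*, in which the bovine keratin 5 promoter drives the transactivator in basal cells of stratified epithelia. All mice drank doxycycline (2 mg/ml) throughout, were adults of matched age, and gave 1 papilloma each, taken when the experiment ended or when a mouse had to be killed earlier. *Nanog* had 2.70, 2.84, 12.7 and 3.34 FPKM in CTR 1 to CTR 4, and 36.9, 57.4 and 66.9 FPKM in TG 1 to TG 3, with transgene and endogenous transcripts counted together.

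Semaphorins are secreted, membrane-spanning or lipid-anchored ligands, first known as cues that repel growing axons. Plexins are their signaling receptors and act on small GTPases and the cytoskeleton. Most class 3 semaphorins bind a neuropilin, which holds the ligand for an A or D plexin, whereas class 4 members bind plexins directly. In skin these proteins are known from keratinocytes, vessels, nerves and immune cells.

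FPKM are read counts scaled for transcript length and for sequencing depth, so levels of different genes can be set side by side. The Cufflinks intervals implied between 10.07 M and 15.71 M reads per papilloma, with CTR 3 and TG 1 the deepest. All 10 keratinocyte markers were found, with a summed level of 16024 to 19449 FPKM in CTR papillomas, 26878 in TG 1, 22077 in TG 2 and 13022 in TG 3. *Krt14* and *Krt6a* were the largest parts of this sum in every papilloma. The markers went different ways in TG 3, where *Krt14*, *Krt6a*, *Krt1*, *Krt10* and *Lor* were lowest and *Krt15*, *Dsg3* and *Cdh1* highest. TG 3 stood apart, with the highest value for 7 of 7 fibroblast, 7 of 7 skeletal muscle, 7 of 7 pericyte and smooth muscle, 7 of 7 Schwann cell, 5 of 6 macrophage, 5 of 9 endothelial and 4 of 10 keratinocyte markers. Its 7 fibroblast markers summed to 692.3 FPKM against 77.5 to 135.3 in the other 6 papillomas, and its 7 skeletal muscle markers to 642.6 against 8.50 to 13.8. Its 6 macrophage markers summed to 129.4 against 29.0 to 43.0, its 7 markers of pericytes and smooth muscle to 92.1 against 24.4 to 42.1, and its 7 Schwann cell markers to 23.1 against 6.70 to 8.63. The 9 endothelial markers summed to 43.2 FPKM in TG 3 and 37.8 in TG 1, against 15.6 to 22.4 in CTR papillomas and 19.6 in TG 2. *Plin1* and *Cidec*, which define adipocytes, were listed at 0 everywhere but in TG 3 (0.824 and 1.3 FPKM), while *Fabp4* supplied nearly all of the adipocyte sum (1374 to 3228 FPKM in the 7 papillomas). T cell markers summed to 3.14 FPKM in TG 3 and to 1.29 to 2.76 elsewhere.

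Mean levels ran from 42.6 FPKM for *Plxnb2* to 0.0254 FPKM for *Sema5b*. *Plxnb2* was the highest member in 7 of 7 papillomas, 9 members had a mean of at least 5 FPKM, 10 had a mean between 0.5 and 5 FPKM, and 14 stayed under 0.5 FPKM. Of the 32 pairs of neighbours in the order of mean level, 4 kept their order in every papilloma. These were *Plxnb2* over *Sema3f*, *Plxna1* over *Plxnb1*, *Sema4d* over *Sema4c*, and *Sema5a* over *Sema3b*. All other neighbours changed places in at least 1 papilloma, as did *Sema3f*, *Sema4b* and *Sema4a*, whose means lay between 19.4 and 19.9 FPKM. Of the summed semaphorin FPKM, class 4 made up 58.1% to 65.8% and the secreted class 3 made up 22.8% to 32.8% in the 6 papillomas with a valid value for *Sema4a*. *Plxnb2* alone held 52.9% to 60.1% of the plexin FPKM in the 7 papillomas.

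**Figure D1:**
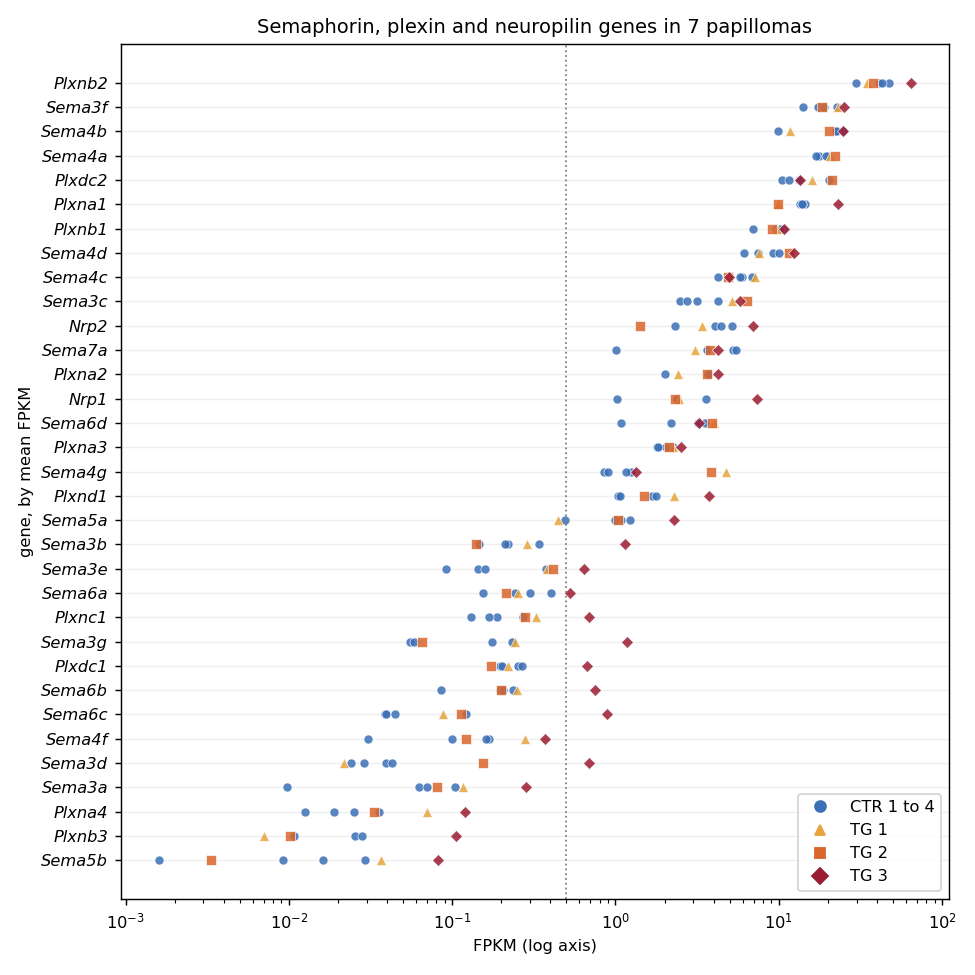
FPKM (log axis) of the 33 genes in each papilloma, ordered by mean level; circles are the 4 CTR papillomas, the other symbols the 3 TG papillomas, and the dotted line marks the minimum of 0.5 FPKM used in the fit. *Plxnb2* is the highest in every papilloma, and TG 3 lies to the right of all others for each of the 14 genes with a mean under 0.5 FPKM; *Sema4a* in TG 3 (failed estimate) and *Plxnb3* in CTR 1 (listed at 0) are not drawn.

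Of the 18 tested members, *Sema3c* and *Sema4g* had every TG value above every CTR value. *Sema3c*, a secreted ligand for neuropilins and plexin D1, lies on chromosome 5 from 17574816 to 17730267. It had 2.49, 3.16, 2.76 and 4.25 FPKM in CTR 1 to CTR 4, and 5.18, 6.42 and 5.83 FPKM in TG 1 to TG 3. The 3 TG values lay close together, with CTR 4 the nearest CTR papilloma. TG papillomas averaged 5.81 ± 0.62 FPKM (SD, n = 3) against 3.17 ± 0.774 FPKM (SD, n = 4), a ratio of 1.83. On the log2(FPKM + 0.5) scale the difference was 0.80 (SE 0.20, adjusted p = 0.564 from limma over all tested genes). It stayed between 0.69 and 0.93 under the 19 alternatives, some of which could not move it (filters, moderation, handling of loci and status).

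*Sema4g*, a transmembrane ligand of B plexins, lies on chromosome 19 from 44989344 to 45003395. It had 0.848, 0.905, 1.24 and 1.16 FPKM in CTR 1 to CTR 4, and 4.75, 3.86 and 1.34 FPKM in TG 1 to TG 3. TG 1 and TG 2 stood far above the CTR papillomas, whereas TG 3 lay just above CTR 3. TG papillomas averaged 3.32 ± 1.77 FPKM (SD, n = 3) against 1.04 ± 0.193 FPKM (SD, n = 4), a ratio of 3.19, and 59 to 515 implied reads stood behind each value. The log2 difference was 1.19 (SE 0.35, adjusted p = 0.607 from limma). It was 1.64 without TG 3 (adjusted p = 0.0462 from limma) and 1.41 with sample quality weights (adjusted p = 0.0379 from limma), and the adjusted p ranged from 0.0379 to 0.999 over the alternatives. With upper-quartile scaling or quantile normalization its groups overlapped, whereas those of *Sema3c* did not.

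Among all 12299 tested genes, 4.93% had every TG value above every CTR value, and 2.23% had every TG value below, against 2 and 0 of the 18 tested members. The fit called 0.0% of the tested genes, and no member, at the threshold of 0.05 on the adjusted p from limma. The authors' own test on these papillomas listed genes higher in TG at a false discovery rate under 0.05, *Nanog* among them. *Nanog* was not called here either, so the absence of calls does not show that nothing changed. Without adjustment, 598 genes (4.86%) passed 0.05 as higher in TG and 241 as lower, and the members among them were *Sema3c* and *Sema4g*. Upper-quartile scaling turned this split of higher and lower genes into 515 and 418, and quantile normalization into 403 and 551. *Sema4g* was the member called with quality weights, among 0.398% of genes higher in TG, and without TG 3, among 0.0751% of genes. *Sema4a* had a failed estimate in TG 3 and the other 14 members were under the FPKM minimum, so neither entered the fit.

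**Figure D2:**
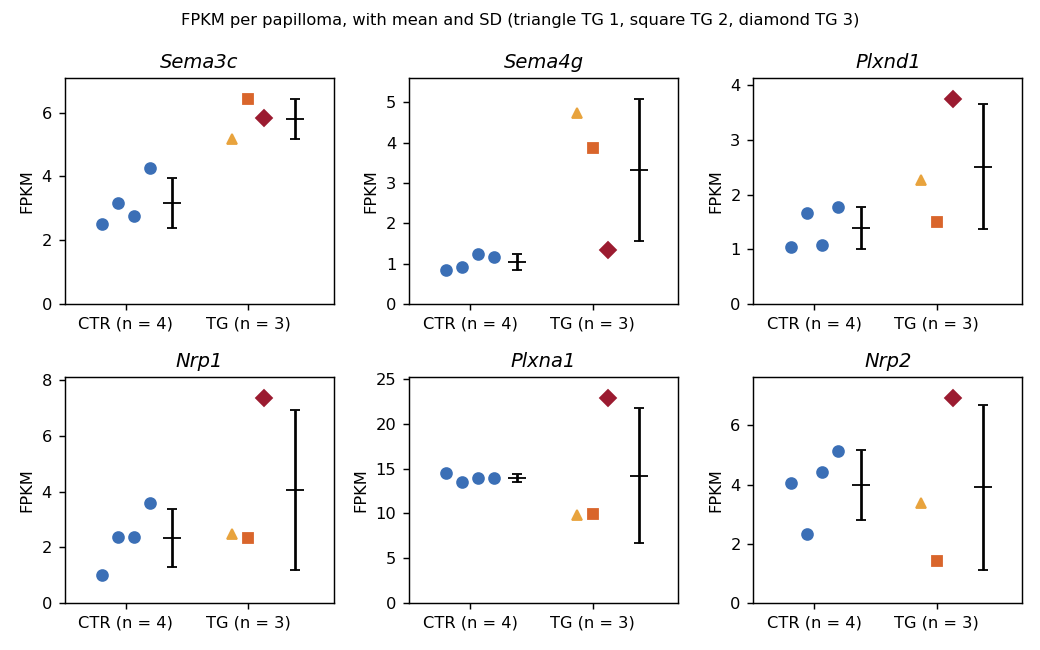
FPKM of 6 members in each papilloma (circles CTR 1 to CTR 4 from left to right, triangle TG 1, square TG 2, diamond TG 3), with the mean and SD of each group as bars. *Sema3c* is at 5.18 FPKM or more in every TG papilloma and at most 4.25 FPKM in every CTR papilloma, *Sema4g* is high in TG 1 and TG 2 only, and *Plxnd1*, *Nrp1*, *Plxna1* and *Nrp2* are highest in TG 3.

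Among the other class 3 ligands, *Sema3f* was the most abundant in every papilloma and held 71.5% to 86.8% of the class 3 FPKM. SEMA3F, a ligand of neuropilin 2, is known as an inhibitor of vessels and tumor spread. It had 17.3, 14.1, 22.7 and 18.9 FPKM in CTR 1 to CTR 4, and 23.2, 18.3 and 25.1 FPKM in TG 1 to TG 3 (log2 difference 0.28, SE 0.20, adjusted p = 0.842 from limma). The groups overlapped, since CTR 3 and CTR 4 were above TG 2. *Sema3b* lies 72.3 kb from *Sema3f* on chromosome 9 and was far lower. *Sema3b* had 0.2196, 0.145, 0.3399 and 0.211 FPKM in CTR 1 to CTR 4, and 0.287, 0.140 and 1.14 FPKM in TG 1 to TG 3, the last being 3.36 times the next highest papilloma. *Sema3g*, whose product acts in vessels, had 0.234, 0.0553, 0.174 and 0.0583 FPKM in CTR 1 to CTR 4, and 0.243, 0.0655 and 1.18 FPKM in TG 1 to TG 3. Both genes thus had 1 high papilloma, TG 3, and near-equal levels in TG 2 and the lower CTR papillomas.

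*Sema3d*, *Sema3a*, *Sema3e* and *Sema3c* lie in this order on chromosome 5, with gaps of 808, 422 and 3320 kb, and *Sema3c* was the only one of them above 0.5 FPKM on average. *Sema3e*, the ligand that binds plexin D1 without a neuropilin, had 0.144, 0.374, 0.0915 and 0.159 FPKM in CTR 1 to CTR 4. It had 0.379, 0.415 and 0.643 FPKM in TG 1 to TG 3, and the lowest TG value was next to CTR 2 (61 implied reads in TG 1 and 59 in CTR 2). *Plxnc1*, a receptor of SEMA7A, was the other member under the minimum whose groups did not overlap, with 0.131, 0.271, 0.189 and 0.167 FPKM in CTR 1 to CTR 4 and 0.328, 0.279 and 0.686 FPKM in TG 1 to TG 3. TG 2 and CTR 2 were nearly level there (31 and 36 implied reads). Of the 5406 genes with means between 0.01 and 0.5 FPKM, 6.36% had every TG value above the CTR values, against 2 of the 14 members.

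Class 4 held the largest part of the semaphorin FPKM. *Sema3f* averaged 19.9 FPKM and *Sema4b* 19.6 FPKM over the 7 papillomas, and *Sema4a* 19.4 FPKM over the 6 with a valid value. In CTR papillomas *Sema4b* and *Sema4a* averaged more than *Sema3f* (20.03 and 18.4 against 18.2 FPKM). *Sema4a*, which acts on immune cells and plexins, had 20.01, 17.6, 19.4 and 16.8 FPKM in CTR 1 to CTR 4, and 20.6 and 22.2 FPKM in TG 1 and TG 2. Both valid TG values were just above the highest CTR value. *Sema4b* had 22.9, 9.88, 24.9 and 22.5 FPKM in CTR 1 to CTR 4, and 11.7, 20.4 and 24.9 FPKM in TG 1 to TG 3, so that CTR 2 and TG 1 were low and the other 5 papillomas alike. *Sema4d*, the ligand of plexin B1 also known as CD100, had 9.15, 6.08, 7.51 and 9.96 FPKM in CTR 1 to CTR 4, and 7.57, 11.6 and 12.5 FPKM in TG 1 to TG 3 (log2 difference 0.34, SE 0.23, adjusted p = 0.842 from limma). TG 1 was within the range of the CTR papillomas. *Sema4c*, a ligand of plexin B2, differed little, with 5.99, 4.24, 5.79 and 6.89 FPKM in CTR 1 to CTR 4 and 7.13, 4.87 and 4.95 FPKM in TG 1 to TG 3. *Sema4f* was under the minimum, at 0.03065 to 0.168 FPKM in CTR papillomas and 0.122 to 0.371 in TG papillomas.

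Of the transmembrane classes 5 and 6, *Sema6d* and *Sema5a* passed the minimum. *Sema6d* and the class 7 gene *Sema7a* are given in every papilloma, a choice made after their values were seen. *Sema6d*, a ligand of plexin A1, had 3.19, 1.09, 2.17 and 3.53 FPKM in CTR 1 to CTR 4, and 4.02, 3.90 and 3.23 FPKM in TG 1 to TG 3. The groups overlapped through CTR 4 alone, which was above TG 3. Its log2 difference was 0.58 (SE 0.32, adjusted p = 0.813 from limma), and 0.30 without CTR 2, where it was lowest. *Sema5a*, which carries thrombospondin repeats, had 0.494 to 1.23 FPKM in CTR papillomas and 0.443, 1.03 and 2.29 FPKM in TG 1 to TG 3. Its difference was 0.17 with all papillomas and -0.24 without TG 3. *Sema7a*, the lipid-anchored member that binds plexin C1 and integrins, had 5.26, 1.01, 5.46 and 3.64 FPKM in CTR 1 to CTR 4, and 3.06, 3.78 and 4.25 FPKM in TG 1 to TG 3. The CTR papillomas varied more than the TG papillomas, with SDs of 2.06 (n = 4) and 0.598 FPKM (n = 3).

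*Plxnb2* (chromosome 15, from 89155549 to 89180788), a receptor of class 4 semaphorins, had 47.2, 29.7, 40.8 and 43.0 FPKM in CTR 1 to CTR 4, and 34.9, 37.8 and 64.8 FPKM in TG 1 to TG 3. TG 1 and TG 2 lay within the CTR values and TG 3 above them all, and the log2 difference of 0.15 became -0.12 without TG 3. *Plxnb1*, the SEMA4D receptor, varied little, with 9.68, 6.95, 10.6 and 10.2 FPKM in CTR 1 to CTR 4 and 9.81, 9.11 and 10.7 FPKM in TG 1 to TG 3. *Plxnb3* was near 0 throughout (at most 0.106 FPKM).

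*Plxna1*, the leading A plexin with 63.2% to 77.0% of the class, partners neuropilins and binds SEMA6D. It was the steadiest of the abundant members in CTR papillomas, at 14.5, 13.5, 13.9 and 13.9 FPKM. The TG papillomas had 9.85, 9.94 and 22.9 FPKM in order of number, all 3 outside the range of the CTR papillomas, with TG 1 and TG 2 below it and TG 3 above. The group means were therefore nearly equal, with 14.2 ± 7.52 FPKM (SD, n = 3) for TG against 14.0 ± 0.406 FPKM (SD, n = 4). Without TG 3 the log2 difference was -0.48 (adjusted p = 0.337 from limma, between 0.239 and 1.00 over the alternatives), and with all papillomas it was -0.09. *Plxna2* and *Plxna3* had 2.00 to 3.76 and 1.81 to 2.25 FPKM in CTR papillomas, and 2.40 to 4.22 and 2.14 to 2.52 FPKM in TG papillomas. *Plxna4* reached at most 0.1201 FPKM.

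*Plxnd1*, *Nrp1* and *Nrp2*, named after their values were seen, encode receptors that are prominent in vessels. *Plxnd1* had 1.03, 1.66, 1.07 and 1.77 FPKM in CTR 1 to CTR 4, and 2.27, 1.501 and 3.75 FPKM in TG 1 to TG 3 (log2 difference 0.63, SE 0.29, adjusted p = 0.76 from limma). *Nrp1* had 1.02, 2.37, 2.39 and 3.58 FPKM in CTR 1 to CTR 4, and 2.46, 2.32 and 7.37 FPKM in TG 1 to TG 3. *Nrp2* had 4.05, 2.32, 4.42 and 5.14 FPKM in CTR 1 to CTR 4, and 3.38, 1.41 and 6.93 FPKM in TG 1 to TG 3. All 3 were highest in TG 3, *Plxnd1* was next highest in TG 1, and *Nrp2* was lowest in TG 2. Without TG 3 the log2 differences were 0.35, 0.11 and -0.67. The endothelial marker sum was high in both TG 3 and TG 1 (43.2 and 37.8 FPKM), whereas *Nrp1* and *Nrp2* in TG 1 lay among the CTR values. The fibroblast sum (692.3 FPKM in TG 3 and 99.6 in TG 1) and the pericyte and smooth muscle sum (92.1 and 42.1 FPKM) were highest in TG 3 as well. The part of these cell types in the values was not tested, and in bulk RNA a larger share of a cell type and more RNA per cell cannot be told apart.

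*Plxdc1* and *Plxdc2* share a domain with plexins and are receptors of the secreted protein PEDF. *Plxdc2* had 20.3, 10.5, 13.4 and 11.6 FPKM in CTR 1 to CTR 4, and 16.1, 21.2 and 13.5 FPKM in TG 1 to TG 3, so TG 3 was the lowest TG papilloma. *Plxdc1*, known from tumor endothelium, had 0.196 to 0.269 FPKM in CTR papillomas and 0.218, 0.174 and 0.670 FPKM in TG 1 to TG 3. *Serpinf1*, which encodes PEDF, had 4.14, 12.2, 7.67 and 11.6 FPKM in CTR 1 to CTR 4, and 8.39, 11.3 and 28.3 FPKM in TG 1 to TG 3.

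**Figure D3:**
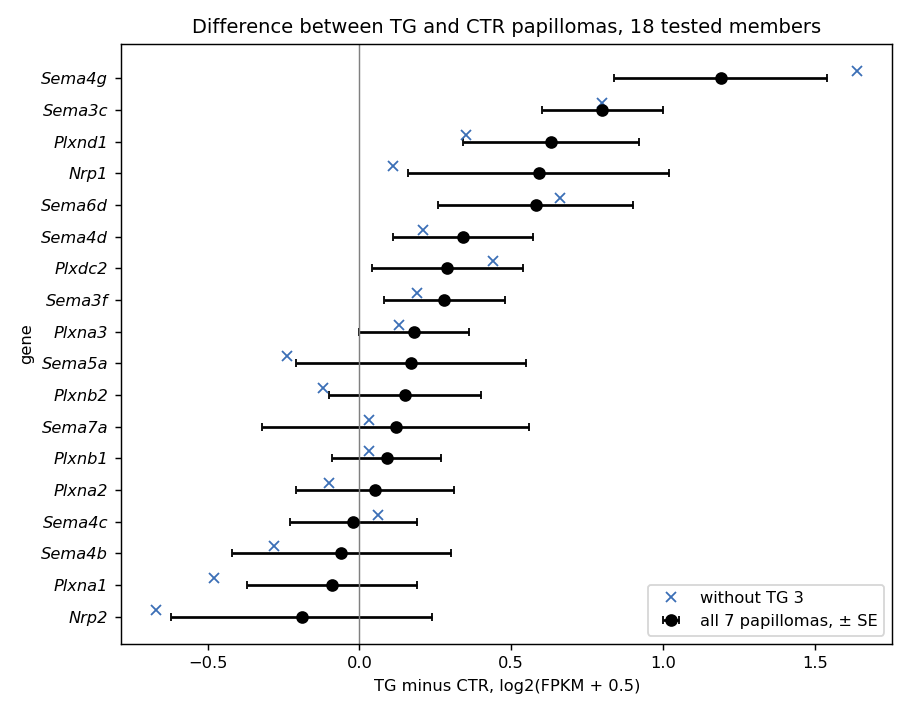
Difference between TG and CTR papillomas in log2(FPKM + 0.5) for the 18 tested members, as black points with standard errors for all 7 papillomas and as blue crosses without TG 3. Without TG 3 the value of *Sema4g* is larger (1.64), that of *Sema3c* equal (0.80), and those of *Plxna1* and *Nrp2* lower (-0.48 and -0.67).

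Of the 18 tested members, 14 had a higher mean log2 value in TG papillomas, with a median difference of 0.17, against 60.0% of all tested genes and a median of 0.06. The count was 10 without CTR 2, 12 without TG 3 and 9 with quality weights, where the median of all tested genes was 0.02, -0.03 and -0.03. It was 13 with upper-quartile scaling or quantile normalization. It rose to 15 without CTR 3, to 16 without CTR 1, CTR 4 or TG 1, and to 17 without TG 2. A replicate block also gave 16, with the same differences as without CTR 4. In those settings the median of all tested genes was 0.07 to 0.13. The share of all genes with a higher mean was taken in the main fit only, so the counts in other settings have no matching share. CTR 2 was the lowest papilloma for 10 of the 18 members and for 30.2% of tested genes, and TG 3 the highest for 11 of the 18 members and for 41.1% of tested genes. On the log2 scale the median member lay above its mean in CTR papillomas by 0.11 in TG 1, 0.11 in TG 2 and 0.44 in TG 3, whereas the median tested gene lay at -0.03, -0.02 and 0.24.

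For the members with means under 0.5 FPKM, TG 3 was the highest papilloma in 14 of 14, against 46.3% of all genes at such levels. TG 3 also differed over the whole library, with a median of 1.04 FPKM over all entries against 0.481 to 0.596 in the other papillomas. *Sema3d*, a secreted ligand, had 0.0240 to 0.0427 FPKM in CTR papillomas and 0.0219, 0.1555 and 0.685 FPKM in TG 1 to TG 3, with 67 implied reads in TG 3 and at most 16 elsewhere. *Sema6c*, a transmembrane member, had 0.0387 to 0.122 FPKM in CTR papillomas and 0.0882, 0.113 and 0.883 FPKM in TG 1 to TG 3, with 22 implied reads in TG 3 and at most 4 elsewhere. Both were named after their values were seen. *Sema6b* and *Sema6a* reached 0.7503 and 0.524 FPKM in TG 3, and *Sema3a* reached 0.285. *Sema5b* had at most 4 implied reads in any papilloma. The 14 genes had a median of 9 implied reads per value, TG 3 included. Their differences among the papillomas were not tested against counting error. The fibroblast, skeletal muscle, macrophage, pericyte and Schwann cell marker sums given above were likewise highest in TG 3, and their part in these values was not tested.

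**Figure D4:**
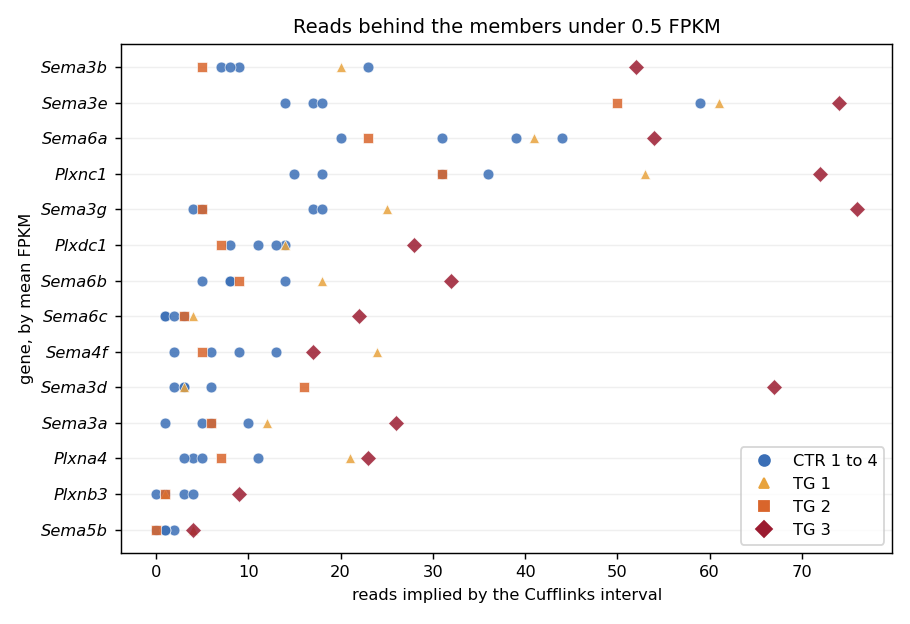
Reads implied by the width of the Cufflinks interval for the 14 members with means under 0.5 FPKM, in each papilloma (circles CTR, triangle TG 1, square TG 2, diamond TG 3). TG 3 reaches 76 reads for *Sema3g* and 67 for *Sema3d*, while *Plxnb3* and *Sema5b* stay under 10 everywhere; CTR 3 and TG 1 are deeper libraries, so reads are not scaled between papillomas.

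Partners of the system were taken from a list of 59 genes (co-receptors, GTPases, their regulators, cytoskeletal effectors and proteases), of which 58 were found and 50 tested. None was called. In TG papillomas 41 had a higher mean log2 value (median difference 0.21), against 60.0% of all tested genes (median 0.06). TG 3 was the highest papilloma for 31 of the 50, against 41.1% of all tested genes. Without adjustment 4 of the 50 passed 0.05, a share near that of all genes, where 598 higher and 241 lower of 12299 did. *Limk1*, *Fes* and *Flt1* were higher in all 3 TG papillomas than in any CTR papilloma, and 0 of the 50 were lower in all 3. Over all tested genes these shares were 4.93% and 2.23%, so the counts of partners were near the background. *Limk1*, a kinase that acts on cofilin, had 1.41, 1.01, 1.49 and 1.58 FPKM in CTR 1 to CTR 4, and 3.64, 2.44 and 2.73 FPKM in TG 1 to TG 3 (log2 difference 0.87, SE 0.21, adjusted p = 0.558 from limma). The lowest TG value, in TG 2, stood clear of the highest CTR value. *Fes*, a kinase known to act with plexin A1, had 2.08 ± 0.697 FPKM (SD, n = 4) in CTR and 4.40 ± 1.54 FPKM (SD, n = 3) in TG papillomas. *Flt1*, a VEGF receptor of endothelium, had 0.537 to 0.988 FPKM in CTR papillomas and 1.47, 1.03 and 1.4 FPKM in TG 1 to TG 3. *Met* and *Erbb2*, receptors that associate with B plexins, had 12.6 and 20.1 FPKM in TG 3, 2.91 to 4.86 and 14.8 to 22.1 FPKM in the other papillomas. *Rac1*, *Rhoa* and *Cfl1*, the GTPases and the actin-severing cofilin on which plexin signals converge, differed by 0.10, 0.03 and -0.01 on the log2 scale.

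RefSeq promoters (GRCm38.p6, 250 bases before to 50 after a start) were given for 26 of the 33 members, with 37 starts in all. Both strands were searched for TGANTCA and for TAATGG, a homeodomain motif of the NANOG type. TGANTCA, with any base at its center, is a loose form of the element bound by AP-1, one of the factors that respond to TPA. TGANTCA was in 3 of the 37 windows and in 7.81% of all 32851 promoters, and TAATGG in 1 of 37 and in 7.73%. The windows of *Sema3c* and *Sema4g* held neither string. The 4 matches are shown with the motif in capitals, 5′ to 3′ on the strand of the gene, because they show where the family does carry these letters.
Sema4c (chr1:36558387-36558414, minus strand, match 22 bases before the start): ggcgcagacctTGACTCAcgagctgcaa
Sema6b (chr17:56133884-56133911, minus strand, match 48 bases before a start): cacacgtactcTGAGTCAcaaatcctgg
Sema4d (chr13:51749033-51749060, minus strand, match 239 bases before a start): ccccacatcccTGAATCAgcctatatag
Plxnb2 (chr15:89173918-89173945, minus strand, match 17 bases after an alternative start): acttaggtaggTAATGGccggtcctgct
*Sema4c* and *Sema4d* were among the abundant members and *Sema6b* was under the minimum, and a match in the letters is no evidence of binding.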

How the data were processed

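RNA from 7 papillomas was sequenced as single reads from stranded polyA+ libraries. Per the labels and the methods, the authors used TopHat 2.0.4 (on Bowtie 0.12.7, with SAMtools 0.1.16) for alignment to GRCm38/mm10, and Cufflinks 1.3.0 for abundance in every papilloma. They deposited FPKM values with interval bounds and a status, and stated no scaling between papillomas. Files were joined by symbol and locus. Symbols with several loci were summed (240), and 162 with the status FAIL in a papilloma were left out. Locus starts count from 0 and were printed after adding 1. Reads behind a value were implied from the interval, whose half-width is 2 SD, and are approximate where a gene has several isoforms. Intervals cover counting error only.

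TG and CTR were compared with limma 3.58.1 in R 4.3.3 on log2(FPKM + 0.5), with a variance trend, for 12299 genes that averaged 0.5 FPKM or more. P-values were 2-sided and adjusted over all of them (Benjamini-Hochberg, threshold 0.05). The fit was also run on simulated data, but how often it finds a difference of a given size is not reported here. For low genes the pseudocount shrinks a difference. The authors' own differential test needs aligned reads and was not run. Members, lists and alternatives were chosen with earlier results of these data known. Values in all papillomas were printed for members that averaged 5 FPKM or more, for those whose groups did not overlap, and for those over 1 FPKM whose highest value was over 3 times the next. Others are named as such or by ranges. Correlations with marker sums were not given because TG 3 stood apart. The 19 alternatives were other pseudocounts, filters, scalings and moderation, quality weights, a replicate block, other handling of loci and status, each papilloma left out and, added after seeing the data, the papillomas of lower depth only.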

Additional observations from a re-analysis of the deposited data

Results flagged for a closer look

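In the 33 CTR groups of 4 papillomas, 3 members had a papilloma far from the others by Dixon's criterion, where about 1 group in 20 is flagged by chance. *Sema4b* was low in CTR 2 (9.88 FPKM, with the other CTR papillomas between 22.5 and 24.9). *Plxna2* was also low in CTR 2 (2.00 FPKM, with the others between 3.68 and 3.76). *Sema6c* was high in CTR 4 (0.122 FPKM), on 3 implied reads.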

How the results depend on the processing

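At an adjusted p under 0.05, 0 genes were higher and 0 lower in TG papillomas. With sample quality weights, 49 were higher and 36 lower, and 1 member (*Sema4g*) was called. In the papillomas of lower depth, 1 gene was higher. Leaving out each papilloma in turn gave 0 to 9 genes higher, 0 to 8 lower and 0 to 1 member called (*Sema4g*, without TG 3). The number of members with every TG value above the CTR values, 2 in the main comparison, was 4 with no filter on low values, 1 with upper-quartile scaling, 1 with quantile normalization, and 2 to 5 when single papillomas were left out. It was 4 without CTR 1 and 5 without TG 2. The number with every TG value below was 0, and 0 to 1 when single papillomas were left out, the 1 member being *Plxna1* without TG 3. The cause of these shifts was not tested. Counts with a papilloma left out rest on fewer values, so they are not on the same footing as the main count. With no filter on low values, 32 members entered instead of 18. The matching shares over all genes were not taken in these settings, so the counts are no result about the members. The sign of the difference held in all alternatives for 9 of the 18 tested members (*Nrp1*, *Plxdc2*, *Plxna3*, *Plxnd1*, *Sema3c*, *Sema3f*, *Sema4d*, *Sema4g* and *Sema6d*) and turned in at least 1 for the other 9, none of which was called under any alternative. The filters, limma without a variance trend and the handling of loci and status leave a member's difference unchanged, so could not turn its sign.

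With the replicate block, 0 genes passed in each direction, and 505 genes were higher and 170 lower at an unadjusted p under 0.05. Nothing in the labels says that equal numbers mark a pairing. Deviations from the group means correlated at -0.186, 0.0431 and -0.146 for numbers 1, 2 and 3. The depth of 10.07 M to 15.71 M implied reads left a median of 529 reads behind a tested member's value and 9 behind a value of the members under the minimum.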
